A study of Mus musculus with 9 samples.

Results

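The genes described here build cholesterol and fatty acids and set how fast that happens. They are a list of 32 gene names: 5 of the SREBP control system, 7 of the mevalonate pathway, 10 that turn its product into sterols, 3 that make palmitate, and 7 that lengthen or desaturate fatty acids. All 32 were among the 20732 genes of the count table, matched by Ensembl identifier, and 30 of them carried enough reads to be tested.

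Cells make cholesterol from acetyl-CoA through mevalonate, farnesyl diphosphate, squalene and lanosterol, and fatty acids from the same acetyl-CoA through malonyl-CoA. SREBP proteins, encoded by Srebf1 and Srebf2, are held in the endoplasmic reticulum by Scap and the Insig proteins while sterols are plentiful, and are cut and sent to the nucleus when sterols run low, where they switch on genes of both routes. Lymphocytes that start to divide need new membrane, and induction of this programme is well known from activated T cells.

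The cells were group 2 innate lymphoid cells (ILC2s), tissue lymphocytes without antigen receptors that release type 2 cytokines, from pancreata of C57BL6/J mice. The sort kept living CD45+ cells that lacked CD3, B220 and the lineage markers and carried KLRG1. The control mice received PBS (4 libraries, titled naïve), and the treated mice received 200 ng of IL-33, an alarmin cytokine that activates ILC2s, on days 0 and 1 (5 libraries). Pancreata were collected on day 5 in both groups, and the comparison asks what IL-33 changed in these cells. The series' own text states 5 mice for PBS and 4 for IL-33, while the sample labels give 4 and 5 libraries, and the labels were followed. Since no source ties a library to 1 mouse, the spread behind each p-value is that between libraries and may be partly technical.

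Total counts were 14216976 to 21020023 per library. Defining ILC2 genes were abundant: Gata3 lay between 2988 and 6803 CPM (counts scaled to a common library size by the TMM method) and Klrg1, used in the sort, between 593 and 1680.4 CPM. Of the 10 listed ILC2 genes, 3 were called higher with IL-33 (30%, against 13.7% of all genes) and 1 lower (10%, against 11.6%). Klrg1 was among the higher, at 709 CPM with PBS and 1429 CPM with IL-33 (adjusted p = 7.88e-04). Il7r was the lower one, at 652 and 269 CPM (adjusted p = 0.00306). Of the T cell list, Cd3e stayed at or below 9.32 CPM and Cd3d at or below 4.04 CPM, while Cd3g lay between 221 and 342 CPM in all 9 libraries. Of the B cell list, Ms4a1 stayed at or below 0.791 CPM, while Cd79b was called higher, at 16.4 CPM with PBS and 74.8 CPM with IL-33 (adjusted p = 0.0146). PBS replicate 4 stood apart, with 39.2% of its counts on 21 genes of pancreatic acinar cells against 0.123% to 11.2% in the other 8 libraries. Its scaling factor was 0.532, against 0.990 to 1.17. Adipocytes, which make much fat, left little RNA: the 8 measured genes of a list of 10 summed to 10.8 to 66.4 CPM with PBS and 2.49 to 8.67 CPM with IL-33, most of it Fabp4, and 5 of the 8 stayed below 1 CPM in each library, Plin1 at 0 in 8 of 9. The erythroid list summed to 168 to 323 CPM with PBS and 369 to 3567 CPM with IL-33, and all 4 of its tested genes were called higher; the beta-globin gene Hbb-bs lay between 218 and 776 CPM in IL-33 replicates 1, 2 and 3 and at or below 1.52 CPM in the other 6 libraries. The endothelial list summed to 48.2 to 214 CPM with PBS and 29.9 to 66.2 CPM with IL-33. Of its 8 genes, 2 were called lower (25%, against 11.6% of all genes). The ductal and epithelial list summed to 14.6 to 322 CPM with PBS and 2.44 to 47.0 CPM with IL-33. Of its 4 tested genes, 1 was called lower (25%), Epcam, at 18.1 and 0.833 CPM. Krt8, Krt18 and Sox9 were not called. With PBS and IL-33, the median of Krt8 was 2.23 and 9.43 CPM, of Krt18 4.87 and 13.0 CPM, and of Sox9 1.42 and 0.712 CPM. All 10 proliferation genes tested were higher with IL-33, Mki67 going from 9.80 to 37.0 CPM to 192 to 244 CPM. The part of these markers in the results was not tested. In sorted bulk RNA, fewer cells of a type and less RNA per cell cannot be told apart.

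Synthesis genes did not move as a block. Of the 30 tested members, 5 were called higher with IL-33 (16.7%, against 13.7% of all 14405 genes tested) and 2 lower (6.67%, against 11.6%), where a call is an adjusted p below 0.05 in edgeR's quasi-likelihood test. In either direction that is 23.3% of the members and 25.2% of all genes, so the share called was close to the background. The genes that rose were Srebf1, Pmvk, Lss, Ebp and Elovl1, and those that fell were Cyp51 and Msmo1. The remaining 23 were not called. Changes were positive for 18 members and negative for 12, with a median log2 fold change of 0.16, beside -0.05 over all genes tested. For 5 members (16.7%, against 26.1% of all genes) no PBS library overlapped any IL-33 library: Srebf1, Lss, Cyp51, Msmo1 and Ebp. Summed over all 32 members, expression was 1437 ± 186 CPM (SD, n = 4) with PBS and 1449 ± 62.5 CPM (SD, n = 5) with IL-33, and the groups overlapped.

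Only Cyp51 and Ebp of the 7 called members kept an adjusted p below 0.05 whichever single library was left out. The other 5 calls lay close to the threshold and are given below with the libraries they rest on. With library size alone in place of TMM scaling, which gives PBS replicate 4 its full acinar counts as depth, none of the 7 passed, although all 7 kept their direction.

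**Figure D1:**
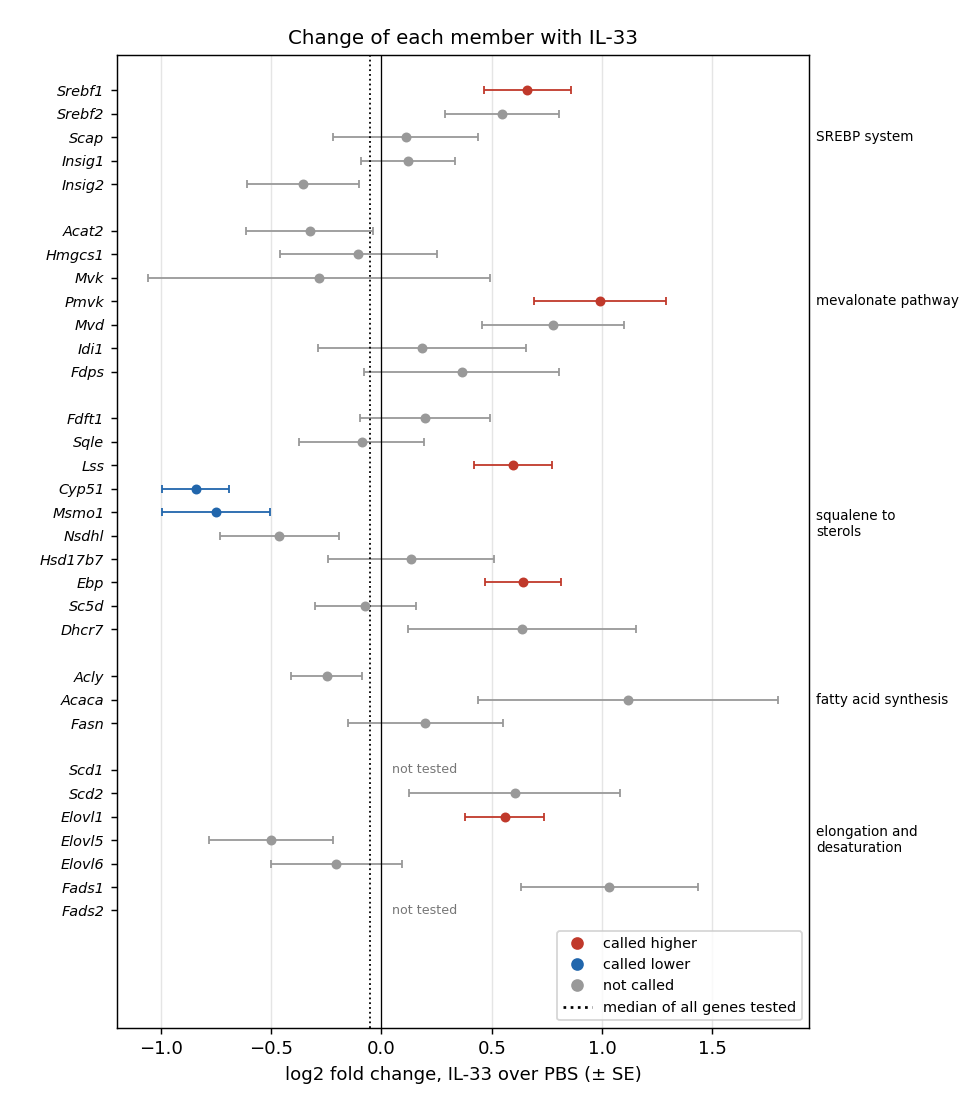
Log2 fold change of each member, IL-33 over PBS, with its standard error (horizontal axis), by role; red points were called higher, blue points lower and grey points not called, and Scd1 and Fads2 were not tested. The 5 red and 2 blue points fall in 4 of the 5 role groups, and the dotted line marks the median of all genes tested, -0.05.

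The SREBP control genes were at similar, moderate levels, and 1 of the 5 was called (20%, against 25.2% of all genes). Srebf1, which encodes the SREBP form that favours fatty acid genes (ENSMUSG00000020538, chr11:60199089-60222581, minus strand, GRCm38), stood at 16.3, 17.2, 23.5 and 18.9 CPM in the PBS libraries, in the order of their replicate numbers, and at 27.3, 39.4, 24.4, 28.3 and 30.5 CPM in the IL-33 libraries. Every IL-33 library was above every PBS library, though IL-33 replicate 3 at 24.4 lay just above PBS replicate 3 at 23.5. The log2 fold change was 0.66 ± 0.20 (SE), 1.58-fold, with an adjusted p of 0.0339. That call held without PBS replicate 3 or without IL-33 replicate 3 and was lost without any other library (adjusted p 0.0251 to 0.0869 over the 9 fits). Srebf1 shares 109 exon bases with Rai1 on the opposite strand; Rai1 was not called (log2 -0.48 ± 0.27, adjusted p = 0.227).

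Srebf2, whose product favours the cholesterol genes, gave 29.5, 47.9, 59.6 and 25.9 CPM with PBS and 58.6, 76.5, 49.4, 53.9 and 59.5 CPM with IL-33. PBS replicate 3 reached the IL-33 range and the other 3 PBS libraries lay below it. Its log2 difference of 0.55 ± 0.26 did not pass (adjusted p = 0.152), except without PBS replicate 3, where the adjusted p was 0.0461. The ratio of Srebf1 to Srebf2 was the same in both groups within its spread, 0.488 with PBS and 0.502 with IL-33 (geometric means; difference of log2 ratios 0.04, exact permutation test, two-sided, p = 0.921).

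Scap, the escort that carries SREBP out of the endoplasmic reticulum, measured 31.5, 25.4, 41.6 and 17.2 CPM with PBS and 27.5, 32.5, 17.3, 49.6 and 29.6 CPM with IL-33. Both groups covered nearly the same range, and the log2 difference was 0.11 ± 0.33 (adjusted p = 0.835), turning to -0.08 with PBS replicate 4 left out and to -0.14 with IL-33 replicate 4 left out.

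The Insig proteins hold the SREBP and Scap complex back. Insig1, itself a classic SREBP target, was flat: 15.3, 14.7, 12.4 and 12.02 CPM with PBS against 19.7, 14.2, 11.3, 14.8 and 14.1 CPM with IL-33 (log2 0.12 ± 0.21, adjusted p = 0.714). Insig2, which had the highest level per length of the 5 control genes, gave 44.0, 32.5, 20.7 and 18.99 CPM with PBS and 22.7, 20.8, 26.3, 20.7 and 23.3 CPM with IL-33. Here the PBS libraries were split, with replicates 1 and 2 above all IL-33 libraries and replicates 3 and 4 at or below them. The log2 difference was -0.35 ± 0.25 (adjusted p = 0.344).

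Mevalonate pathway genes, which lead from acetyl-CoA to farnesyl diphosphate, included 1 call among 7 (14.3%, against 25.2% of all genes). Pmvk, the phosphomevalonate kinase (ENSMUSG00000027952, chr3:89454541-89469013, plus strand), measured 33.5, 16.2, 21.5 and 11.6 CPM with PBS and 39.9, 55.7, 32.6, 38.7 and 39.3 CPM with IL-33. All IL-33 libraries but replicate 3 lay above all PBS libraries; PBS replicate 1 overlapped that one. Its level was 1.99-fold higher with IL-33 (log2 0.99 ± 0.30, adjusted p = 0.0373). Pmvk stayed called with PBS replicate 1 left out or IL-33 replicate 3 left out and was lost without any of the other 7 libraries (adjusted p 0.01004 to 0.102). It was also lost when the trend with exon length was removed (adjusted p = 0.174), where length is that of all annotated exons of a gene merged. The merged exons of Pmvk span 1713 bases. Over 5 groups of genes by length, the median log2 fold change was 0.40 at a median length of 627 bases, 0.13 at 2108 bases and -0.47 at 9069 bases.

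Mvd, the decarboxylase that follows Pmvk, gave 15.4, 20.8, 29.995 and 18.5 CPM with PBS and 48.2, 49.8, 32.04, 34.4 and 17.5 CPM with IL-33. IL-33 replicate 5 fell inside the PBS range and the other 4 lay above it. The log2 difference of 0.78 ± 0.32 did not pass (adjusted p = 0.107), except without IL-33 replicate 5 (adjusted p = 0.0326).

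The other 5 mevalonate genes were not called. Hmgcs1, the HMG-CoA synthase and a textbook SREBP target, lay between 7.54 and 31.7 CPM with PBS and between 13.7 and 19.9 CPM with IL-33 (log2 -0.10 ± 0.36). Acat2, the thiolase that joins acetyl units, had a log2 difference of -0.32 ± 0.29, Idi1, the isopentenyl diphosphate isomerase, 0.19 ± 0.47, and Fdps, the farnesyl diphosphate synthase, 0.36 ± 0.44. Mvk, the mevalonate kinase, varied most among libraries of 1 group, from 1.06 to 32.8 CPM with PBS and from 3.48 to 20.7 CPM with IL-33 (log2 -0.28 ± 0.77). Fdps shares 1124 exon bases with the gene model Gm43738 on its own strand, so its 25 to 126 reads per library are uncertain.

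In the sterol branch, which runs from squalene to cholesterol, called genes lay in both directions. Lss and Ebp rose with IL-33 while Cyp51 and Msmo1 fell, and the other 6 of its 10 measured enzymes were not called. The share called was 20% in each direction, against 13.7% of all genes called higher and 11.6% lower. For so short a list that difference was not tested. Fold changes ran from -0.84 to 0.64 on the log2 scale, with a median of 0.03. The summed level of the 10 was 443 ± 60.7 CPM (SD, n = 4) with PBS and 487 ± 46.8 CPM (SD, n = 5) with IL-33, and the groups overlapped.

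Promoters of these enzymes are shown for the genes that differ in direction, Lss, Cyp51 and Ebp, with Elovl1 as a called gene of the fatty acid route and Hmgcs1 as the 1 member with an SRE-like match. Sequences are from RefSeq on GRCm38.p6, 5′ to 3′ on the strand of the gene, and hold the 150 bases before the start; for Lss and Cyp51 the 17 and 49 bases nearest the RefSeq start are left out because GENCODE places exon sequence there. Capitals mark CCAAT boxes (CCAAT or ATTGG), GC boxes (GGGCGG or CCGCCC) and the SRE-like match (TCACNCCAC on either strand).
Lss, chr10:76531438-76531587, plus strand: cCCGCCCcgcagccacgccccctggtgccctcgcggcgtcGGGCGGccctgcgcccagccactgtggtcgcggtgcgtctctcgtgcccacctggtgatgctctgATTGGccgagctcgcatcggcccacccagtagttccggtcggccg
Cyp51, chr5:4104747-4104896, minus strand: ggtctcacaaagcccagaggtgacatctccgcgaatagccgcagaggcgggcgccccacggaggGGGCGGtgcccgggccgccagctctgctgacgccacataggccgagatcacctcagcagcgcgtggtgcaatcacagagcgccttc
Ebp, chrX:8193513-8193662, minus strand: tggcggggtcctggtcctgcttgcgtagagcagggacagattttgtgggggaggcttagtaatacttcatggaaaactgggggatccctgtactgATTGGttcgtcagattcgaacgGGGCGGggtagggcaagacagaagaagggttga
Elovl1, chr4:118427943-118428092, plus strand: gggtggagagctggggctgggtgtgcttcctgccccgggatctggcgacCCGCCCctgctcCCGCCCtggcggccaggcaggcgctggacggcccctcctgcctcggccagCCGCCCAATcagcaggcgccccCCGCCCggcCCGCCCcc
Hmgcs1, chr13:119690201-119690350, plus strand: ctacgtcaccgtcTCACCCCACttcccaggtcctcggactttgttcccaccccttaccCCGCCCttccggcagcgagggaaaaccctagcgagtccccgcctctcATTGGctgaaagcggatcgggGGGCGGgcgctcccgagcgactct

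Each of the 5 carries a GC box, and 4 show a CCAAT box within the printed bases; that of Cyp51 starts 29 bases before its RefSeq start, in the bases left out. In Elovl1 a GC box and a CCAAT box overlap. Promoter windows of 250 bases before to 50 after the start were found for 26 of the 32 members, and a CCAAT box on either strand was in at least 1 window of 21 of them (80.8%), against 43.1% of the 9280 tested genes with a window and 37.4% of all 32851 windows. GC boxes were also in 21 of 26 (80.8%), against 68.2% of tested genes and 35.7% of all windows. The E-box CACGTG was in 6 (23.1%, against 11.7% of tested genes and 7.15% of windows). An SRE-like match was in 1, Hmgcs1, starting 137 bases before its start (3.85%, against 1.37% and 1.24%). These are letter matches, not binding sites, and were not tested. Only the exact letters given were searched, so a sequence that departs from them was not counted. A member without an SRE-like match is therefore not shown to lack such an element. Lss and Ebp, which rose, and Cyp51 and Msmo1, which fell, each hold both a CCAAT box and a GC box in their windows. In Msmo1 the CCAAT boxes start 160, 96 and 55 bases before the RefSeq start. GENCODE places the start of Msmo1 further upstream, so these boxes lie within the gene as GENCODE draws it.

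**Figure D2:**
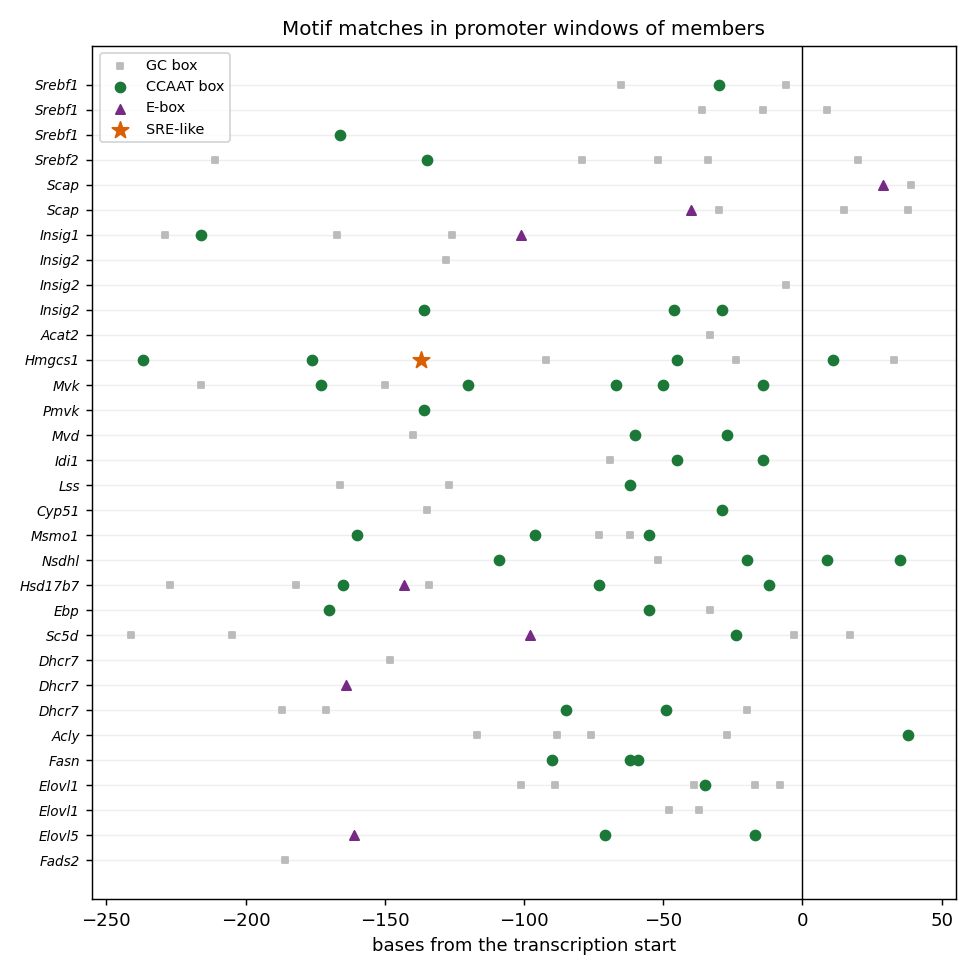
Position of each motif match in the promoter windows of the members that hold any (24 of 26, in 32 of 35 windows), in bases from the RefSeq start (horizontal axis), 1 row per window. CCAAT boxes appear in 21 members, GC boxes in 21 and the E-box in 6. The 1 SRE-like pattern searched, TCACNCCAC, appears in Hmgcs1 alone, and variants of it were not searched.

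Lss closes the squalene chain into lanosterol, the first sterol (ENSMUSG00000033105, chr10:76531588-76557138, plus strand). It measured 21.1, 23.7, 23.6 and 23.1 CPM with PBS and 39.6, 42.4, 25.8, 31.0 and 34.4 CPM with IL-33. PBS libraries were nearly identical, with a coefficient of variation of 5.24%, the smallest of all tested members, and all IL-33 libraries lay above them. The log2 fold change was 0.60 ± 0.18 (adjusted p = 0.0338). Lss shares 381 exon bases with the antisense gene 4930483K19Rik on the opposite strand, for which no value was used here. Lss stayed called only without IL-33 replicate 3, the lowest of its group, and was lost without any of the other 8 libraries (adjusted p 0.0165 to 0.0830).

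Cyp51, the lanosterol demethylase that acts next (ENSMUSG00000001467, chr5:4081145-4104746, minus strand), had the smallest adjusted p of the members. Its values were 76.9, 69.1, 62.5 and 71.2 CPM with PBS and 35.7, 38.5, 32.2, 38.4 and 50.3 CPM with IL-33. The highest IL-33 library, replicate 5, was below the lowest PBS library. Expression fell to 55.8% of the PBS level (log2 -0.84 ± 0.15, adjusted p = 0.00354), and the adjusted p stayed between 0.00276 and 0.0123 with any 1 library left out. With library size alone it was 0.1245. Cyp51 shares 166 exon bases with Akap9 on the opposite strand, and Akap9 also fell, from 197 to 59.2 CPM (log2 -1.73 ± 0.20, adjusted p = 3.43e-04). No source used here says that the counts kept strand, and the part of Akap9 reads in the fall of Cyp51 was not tested.

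Msmo1, the methylsterol oxidase that acts later than Cyp51 in the pathway (ENSMUSG00000031604, chr8:64718139-64733792, minus strand), measured 36.4, 32.1, 32.7 and 29.7 CPM with PBS and 27.6, 15.7, 23.5, 11.7 and 18.8 CPM with IL-33. Groups were apart, with IL-33 replicate 1 closest to the PBS range. The log2 fold change was -0.75 ± 0.25 (adjusted p = 0.0495). This call held without IL-33 replicate 1 and was lost without any of the other 8 libraries (adjusted p 0.0269 to 0.115). It was also lost with no filter on low counts (adjusted p = 0.0620) and with the length trend removed (adjusted p = 0.0919).

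Nsdhl, which acts with Msmo1 in removing methyl groups, lay between 21.5 and 41.5 CPM with PBS and between 13.0 and 30.4 CPM with IL-33 and was not called (log2 -0.46 ± 0.27, adjusted p = 0.246). Hsd17b7, the ketoreductase of the same step, showed 0.14 ± 0.38.

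Ebp, the sterol isomerase that shifts a double bond in the ring (ENSMUSG00000031168, chrX:8185329-8193512, minus strand), was the most abundant sterol enzyme. It measured 145, 97.6, 165 and 142 CPM with PBS and 218, 201, 274, 193 and 187 CPM with IL-33. All IL-33 libraries were above all PBS libraries, PBS replicate 2 being the lowest. The log2 fold change was 0.64 ± 0.17, 1.56-fold, with an adjusted p of 0.0227, and it stayed between 0.0204 and 0.0458 with any 1 library left out. Ebp lost its call with library size alone (adjusted p = 0.0717) and with the length trend removed (adjusted p = 0.0689).

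Of the other sterol enzymes, Fdft1, the squalene synthase, had a log2 difference of 0.20 ± 0.30, Sqle, the squalene epoxidase, -0.09 ± 0.28, and Sc5d, a sterol desaturase, -0.07 ± 0.23. Dhcr7, the reductase of a last step, split the PBS libraries into 4.62 and 7.47 CPM (replicates 1 and 2) and 26.6 and 29.9 CPM (replicates 3 and 4), while the IL-33 libraries lay between 16.5 and 32.4 CPM (log2 0.64 ± 0.52, adjusted p = 0.402). Fdft1 shares 774 exon bases with Ctsb on the opposite strand, and Ctsb rose (log2 0.65 ± 0.13, adjusted p = 0.00687).

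**Figure D3:**
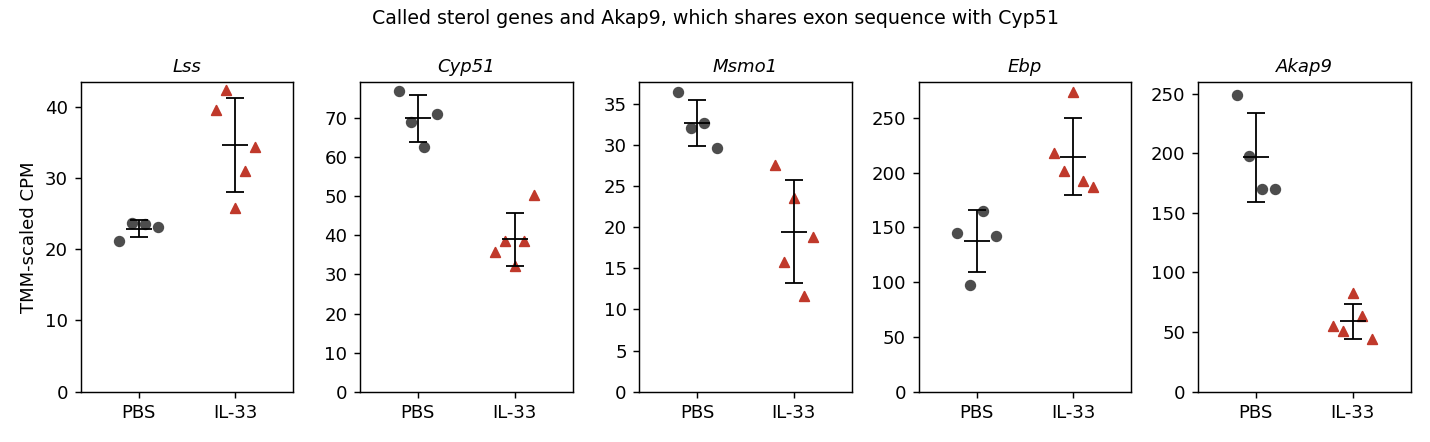
TMM-scaled CPM (vertical axes, each from 0) of the 4 called sterol enzymes and of Akap9, which shares exon bases with Cyp51; grey circles are the 4 PBS libraries, red triangles the 5 IL-33 libraries, and bars the mean ± SD. IL-33 libraries lie above all PBS libraries for Lss and Ebp and below them for Cyp51, Msmo1 and Akap9.

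Within a library, ratios of enzymes next to each other in the member list do not depend on how libraries are scaled. The ratio of Lss to Cyp51 was 0.275, 0.343, 0.378 and 0.324 in the PBS libraries and 1.11, 1.10, 0.802, 0.805 and 0.684 in the IL-33 libraries. It was lower in every PBS library than in any IL-33 library, and the difference of log2 ratios was 1.43. The ratio of Ebp to Sc5d was 2.15, 1.71, 1.54 and 2.27 with PBS and 2.31, 3.36, 3.48, 3.04 and 3.48 with IL-33, a log2 difference of 0.71. Both gave the smallest p that an exact permutation test of 4 against 5 libraries can give (two-sided, p = 0.0159), but with 12 pairs compared the adjusted p was 0.0952 for each. These pairs include called genes, so the ratios are no separate evidence of those calls. The ratio of Cyp51 to Msmo1 had similar geometric means, 2.14 with PBS and 2.07 with IL-33 (difference of log2 ratios -0.04, exact permutation p = 0.905). Single libraries ran from 1.91 to 2.40 with PBS and from 1.30 to 3.29 with IL-33, so the ratio was not fixed. A large p from so few libraries does not show that the groups are equal.

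None of the 3 palmitate synthesis genes was called, against 25.2% of all genes. Acly, the ATP citrate lyase that supplies acetyl-CoA and the highest of the 3 per length, gave 89.8, 107, 115 and 130 CPM with PBS and 82.7, 90.7, 117, 72.7 and 101 CPM with IL-33. Ranges overlapped, and the log2 difference was -0.25 ± 0.16 (adjusted p = 0.298). Acaca, the acetyl-CoA carboxylase that commits carbon to fatty acids, gave 2.64, 3.56, 9.73 and 0.668 CPM with PBS and 3.15, 10.8, 7.39, 12.6 and 11.4 CPM with IL-33. With 17074 bases of exon and 7 to 264 reads per library it was the member lowest per length among those tested. Its log2 difference of 1.12 ± 0.68 did not pass (adjusted p = 0.262). Fasn, the fatty acid synthase, ranged from 17.6 to 45.4 CPM with PBS and from 19.3 to 47.7 CPM with IL-33 (log2 0.20 ± 0.35, adjusted p = 0.717).

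Of the 7 elongases and desaturases, 5 were tested and 1 was called (20% of those tested, against 25.2% of all genes). Elovl1, an elongase of very long saturated chains (ENSMUSG00000006390, chr4:118428093-118432953, plus strand), measured 67.5, 88.1, 127 and 109 CPM with PBS and 147, 152, 158, 122 and 141 CPM with IL-33. IL-33 replicate 4 lay below PBS replicate 3, and the other IL-33 libraries were above all PBS libraries. The log2 fold change was 0.56 ± 0.18 (adjusted p = 0.0449), and the call held without PBS replicate 3 but was lost without any of the other 8 libraries (adjusted p 0.0175 to 0.114). It was lost under 6 of 9 other settings. Elovl1 shares 53 exon bases with Cdc20 on the opposite strand; Cdc20, a gene of mitosis, rose from 7.74 to 144 CPM (log2 4.25 ± 0.93, adjusted p = 0.00914), and its part in the Elovl1 counts was not tested.

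Elovl5, the elongase of polyunsaturated chains, was the most abundant member, at 510, 746, 338 and 257 CPM with PBS and 313, 237, 385, 352 and 349 CPM with IL-33. PBS replicates 1 and 2 stood above all other libraries, while replicates 3 and 4 fell within the IL-33 range. The log2 difference of -0.50 ± 0.28 did not pass (adjusted p = 0.227).

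Fads1, the desaturase that makes arachidonic acid, gave 9.70, 5.55, 11.2 and 8.59 CPM with PBS and 15.97, 23.3, 5.95, 24.5 and 20.1 CPM with IL-33. IL-33 replicate 3 lay within the PBS range and the other 4 above it, and the log2 difference of 1.03 ± 0.40 passed only without that library (adjusted p = 0.0892 with it and 0.0124 without). Scd2, a stearoyl-CoA desaturase, had a difference of 0.60 ± 0.48, and Elovl6, which lengthens palmitate, -0.20 ± 0.30; neither was called.

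Scd1 and Fads2 did not pass the filter on low counts. Scd1, the stearoyl-CoA desaturase of liver and fat, had 13 reads in PBS replicate 4, 4, 2 and 4 reads in IL-33 replicates 2, 3 and 5, and 0 in the other 5 libraries. Fads2, the partner of Fads1, had 33 reads in PBS replicate 4, 6 and 7 in IL-33 replicates 3 and 4, and 0 in the other 6. Of the desaturases, these cells carried reads mainly of Scd2 and Fads1, although a gene with few reads at this depth is not shown to be silent.

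**Figure D4:**
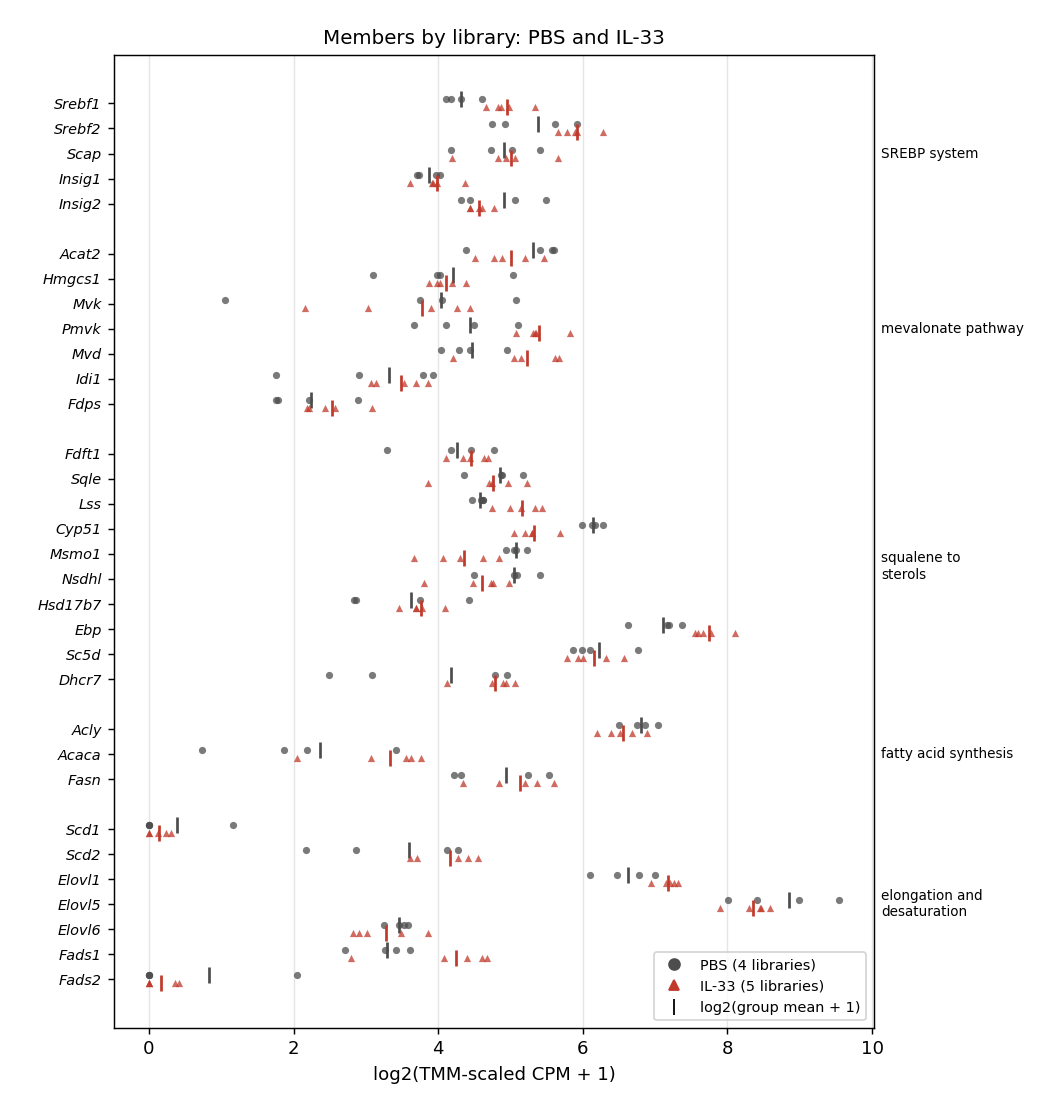
Level of each of the 32 members in every library, as log2 of TMM-scaled CPM plus 1 (horizontal axis), by role; grey circles are the 4 PBS libraries, red triangles the 5 IL-33 libraries, and short bars the log2 of each group mean plus 1. Elovl5 and Ebp lie furthest to the right, and Scd1 and Fads2 are at or near 0 outside PBS replicate 4.

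Levels between genes were compared per length, as CPM divided by exon length (RPKM). With PBS, Elovl5 was highest at 131 ± 61.4 RPKM (SD, n = 4), then Ebp at 59.5 ± 12.3 and Elovl1 at 35.9 ± 9.48. With IL-33, Ebp at 92.9 ± 15.2 (SD, n = 5) and Elovl5 at 92.9 ± 16.03 could not be told apart, and Elovl1 stood at 52.9 ± 5.07. Further down, the order differed between the groups: Acly came next with PBS, at 20.9 ± 3.19 RPKM (17.6 ± 3.26 with IL-33), and Pmvk next with IL-33, at 24.1 ± 5.03 RPKM (12.1 ± 5.49 with PBS). At the low end among tested members were Fdps, at 0.883 ± 0.446 and 1.14 ± 0.382, and Acaca, at 0.243 ± 0.229 and 0.530 ± 0.224.

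Some libraries lay at one end of their group for many members. PBS replicate 3 was the highest of its group for 15 of the 30 tested members (against 25.5% of all genes), and 24 of the 30 lay above their group mean there. PBS replicate 4 was the lowest for 14 (46.7%, against 29.99% of all genes). In the IL-33 group, replicate 2 was highest for 10 (33.3%, against 18.7%). The median deviation from the group mean over the 30 members, on the log2 scale, was 0.30 in PBS replicate 3, -0.17 in PBS replicate 4 and 0.24 in IL-33 replicate 2. The median coefficient of variation of the members was 34.4% with PBS and 23.3% with IL-33, beside 34.1% and 27.2% over all genes tested. For PBS replicate 4, the acinar share of 39.2% was given above; its part in the low member values was not tested. PBS replicate 3 had an acinar share of 7.05%.

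**Figure D5:**
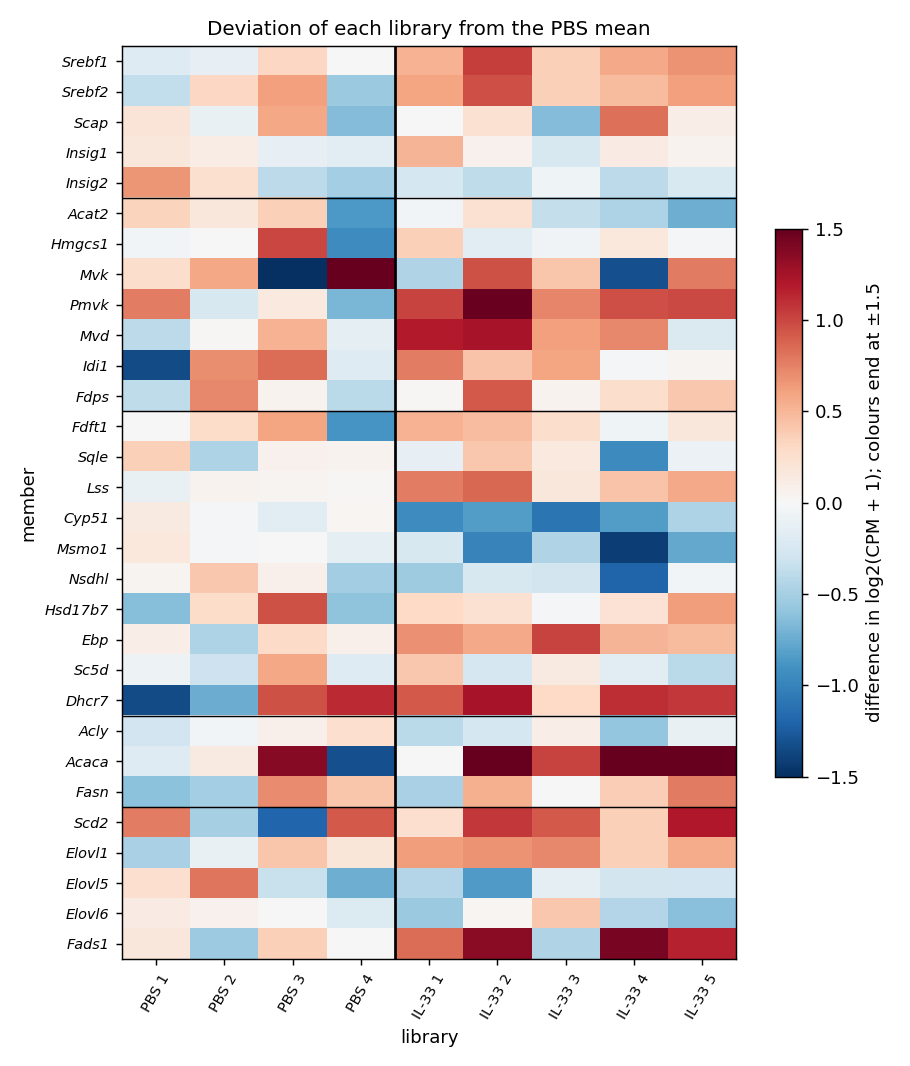
Difference of each of the 30 tested members (rows, by role) from its PBS mean in each of the 9 libraries (columns), in log2 of CPM plus 1, red for higher and blue for lower, with colours ending at ±1.5. Within the PBS columns, replicate 3 is mostly red and replicate 4 mostly blue, while Cyp51 and Msmo1 are blue in all 5 IL-33 columns.

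Other genes of lipid metabolism, 46 listed, 44 in the table and 39 tested, were called in 25.6% of cases, close to the 25.2% of all genes. Of the 39, 4 were higher (10.3%, against 13.7% of all genes) and 6 lower (15.4%, against 11.6%). Their median log2 fold change was -0.31. None of 6 further sterol enzymes was called. Of 6 tested genes of SREBP processing and sterol sensing, 0 were called higher and 2 lower (33.3%). Of 11 of sterol uptake, transport and export, 1 was called higher (9.09%) and 3 lower (27.3%). The difference of these small lists from the shares of all genes was not tested. Mylip, a ubiquitin ligase induced by the sterol-sensing LXR receptors, stood at 58.2 ± 13.0 CPM with PBS (SD, n = 4) and 11.4 ± 3.94 CPM with IL-33 (SD, n = 5), and the log2 fold change was -2.35 ± 0.29 (adjusted p = 5.73e-04).

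Further genes among the 6 called lower were Lpin1, Soat1, Elovl7 and Abcg1. Lpin1, a phosphatidate phosphatase and regulator of SREBP, changed by -1.82 ± 0.31 on the log2 scale (adjusted p = 0.00272). Soat1, which stores cholesterol as esters, changed by -1.44 ± 0.35 (adjusted p = 0.0146), with PBS replicate 4 inside the IL-33 range; with library size alone its adjusted p was 0.0551. Elovl7, an elongase, changed by -1.58 ± 0.35 (adjusted p = 0.00951, and 0.0515 with library size alone). Abcg1, a cholesterol exporter, changed by -0.78 ± 0.25 (adjusted p = 0.0429) and stayed called only without PBS replicate 4 or IL-33 replicate 3 among the 9 fits that leave out a library (adjusted p 0.00689 to 0.117).

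Among the 4 that rose, Npc2, which moves cholesterol out of lysosomes, stood at 195 ± 44.9 CPM with PBS (SD, n = 4) and 428 ± 56.4 CPM with IL-33 (SD, n = 5), and the log2 fold change was 1.13 ± 0.17 (adjusted p = 0.00142). Hacd3, a dehydratase of very long chain elongation, changed by 1.12 ± 0.12 (adjusted p = 3.19e-04), with IL-33 libraries between 102 and 116 CPM and PBS libraries between 44.0 and 62.1 CPM. Acsl5, which activates fatty acids, changed by 1.00 ± 0.14 (adjusted p = 9.28e-04). Fabp5, a fatty acid carrier, changed by 2.09 ± 0.42 (adjusted p = 0.00627). All 4 kept their call whichever single library was left out.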

How the data were processed

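Messenger RNA of sorted pancreatic ILC2s was sequenced in 9 libraries, 4 titled naïve (PBS) and 5 IL-33. The authors deposited whole-number counts per Ensembl gene, which were used here; their table of normalized values was not used. Per the submitters' processing notes, the build was GRCm38.p6 and the tools were STAR 2.7.7a, Salmon 1.6.0, Trimmomatic 0.39, FastQC 0.11.9, DESeq2 and Picard. What each did, the annotation and the strand setting are not given in the sources used. Symbols, coordinates and exon lengths are from GENCODE M21 on GRCm38 (20607 of 20732 identifiers, 99.4%, matched a symbol). Exon length is that of all annotated exons of a gene merged, so it can exceed the length of any single transcript. Levels per length rest on it.

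The test was edgeR's robust quasi-likelihood F-test (version 4.0.16, R 4.3.3, two-sided) after TMM scaling and filtering with filterByExpr at a minimum count of 10. Only the treatment group entered the model. Benjamini-Hochberg adjusted p-values cover all 14405 genes tested, with a threshold of 0.05. Values are TMM-scaled CPM as mean ± SD over libraries. The SE of a log2 fold change comes from the F statistic. Ratios within a library used log2 of CPM and an exact permutation test (SciPy 1.17.1). No 2 libraries of a group were duplicates, since the lowest chi-square was 52.6 for each degree of freedom. The fitting step was tested on counts simulated from the means and spread of the main fit. That test cannot show how well the model suits these libraries.

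The rule named every called member, the 5 SREBP genes, the member highest per length in each role, the 3 uncalled members with the largest change and a mean of at least 1 CPM, and called genes of the other lipid list with at least 5 CPM, at most 6 in each direction. Akap9, Cdc20, Ctsb and Rai1 were chosen after their values were seen. Some genes that the rule names are not reported here. Members and lists were chosen with earlier results of these data known.

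Alternatives were library size alone or the RLE size factors of DESeq2, no filter, a filter of 5 CPM in 4 libraries, the replicate number as a block, the Wald test of DESeq2 1.42.0, sample-weighted voom from limma 3.58.1, acinar genes left out, a threshold of 0.01 and leaving out each library. Removal of the trend with exon length was added after seeing the data.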

Additional observations from a re-analysis of the deposited data

Results flagged for a closer look

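In groups of 4 and 5 libraries, 64 groups of member values were screened for a single library far from the rest, and 2 were found; chance alone flags about 1 in 20 groups. Scd1 was at 1.24 CPM in PBS replicate 4 and at 0 in the other 3 PBS libraries. Fads2 was at 3.149 CPM in PBS replicate 4 and likewise at 0 in the other 3. These values rest on 13 and 33 reads, in genes that failed the filter on low counts. Where all other libraries are at 0, the gap spans the whole range whatever the number of reads. PBS replicate 4 is the library with 39.2% acinar counts and the highest adipocyte sum, 66.4 CPM, of which Fabp4 was 60.3 CPM. Its endocrine, ductal and epithelial, endothelial and fibroblast sums were also the highest, at 304, 322, 214 and 29.0 CPM. Those of the macrophage, T cell, B cell and erythroid lists were not. The part of any of these cell types in the Scd1 and Fads2 reads was not tested.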

How the results depend on the processing

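With DESeq2 size factors 4 members were called higher and 2 lower, and with limma voom or the DESeq2 Wald test 5 and 2, as in the edgeR fit. Library size alone gave 0 higher and 0 lower, with 1976 genes called in all; it moved the median of all genes from -0.05 to 0.08 and the share of calls that were higher from 54.1% to 67.4%. Without a filter 1 member was called lower. With the length trend removed, 2 were higher and 1 lower. A threshold of 0.01 left 0 higher and 1 lower, of 1786 genes called. Leaving out 1 library gave 1 to 5 members higher and 1 to 2 lower.

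With the replicate number as a block, 1 member was called higher (Ebp), 1 lower (Cyp51) and 1457 genes in all. Soat1 was then not called (adjusted p = 0.0706). Deviations of same-numbered libraries correlated at -0.03, -0.06, -0.03 and 0.07. Those of differently numbered libraries ran from -0.18 to 0.19. Such values cannot show whether the numbers pair the libraries. The libraries also differ in acinar share, from 0.123% to 39.2% of counts, and its part in these deviations was not tested. IL-33 replicate 5 has no PBS library of its number, so it added nothing to the change estimated with the block.

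Among named genes, Scap ranged from -0.1353 to 0.3372 and Insig1 from -0.0003 to 0.2055 on the log2 scale with 1 library left out, and Insig1 was at -0.0065 with the length trend removed. No called gene changed direction in any of these fits. The cause of the lost calls was not tested. Counts of 25 to 126 reads for Fdps and 7 to 264 for Acaca limit what could be seen there.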
